A study of Mus musculus with 74 samples.

Results

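Mouse embryos from somatic cell nuclear transfer (SCNT) were compared 6 h after activation and at the 2-cell stage for histone H3 lysine 9 trimethylation (H3K9me3). The members were the autosomal stretches covered by a broad H3K9me3 peak in either list, taken in windows of 1 kb. Of 2395928 autosomal windows, 171217 were marked in at least 1 of the 2 lists. Of these, 60192 were marked at 6 h only, 52592 at the 2-cell stage only and 58433 in both. A window was taken as marked if at least 50% of its bases lay in peaks.

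The 6 h group, NT-6h, held 5 precipitated and 5 input libraries, and the 2-cell group, NT-2cell, held 6 precipitated and 2 input libraries, 18 of the 74 libraries of the series. The study's methods give 2 replicates per stage for the precipitation and 2 to 6 experiments per group elsewhere. How many of these libraries entered each pooled list could not be checked. In both groups the nucleus of a cumulus cell was placed in an enucleated oocyte of a B6D2F1 mouse, which was then activated with strontium and cytochalasin B. Each library pooled many embryos. The study's methods call the 2-cell embryos late 2-cell, which the labels leave out. The lists of the donor cumulus cells, of 14 h SCNT embryos, of the later SCNT stages and of fertilized PN5 zygotes (PN5, the fifth pronuclear stage) were used only to see where else a 6 h or 2-cell region was marked.

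H3K9me3 is the mark of constitutive heterochromatin. It is laid down by enzymes such as SETDB1 and SUV39H1, is bound by HP1 proteins, and keeps repeats, clustered gene families and genes of other lineages silent. After nuclear transfer the oocyte cytoplasm receives a nucleus that carries the H3K9me3 of a differentiated cell, and the embryo has to start its own transcription around the 2-cell stage. H3K9me3 inherited from the donor is known as a barrier to that activation.

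The replicates of each stage had been merged before peaks were called, so each stage was a single list and no error between replicates, test or p-value could be given. Intervals in square brackets are 95% Wilson intervals and cover counting error only. By the study's methods the stages were sampled to equal read numbers before peaks were called, but the lists hold no read counts. The number of reads behind a single peak is thus unknown. A region without a peak was one where none was detected above the callers' threshold. A lower share of marked embryos or cells and a lower level in each of them cannot be told apart in such pools, nor can the stage and the set of libraries that was pooled for it.

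The 6 h list held 157765 autosomal peaks over 138 Mb and the 2-cell list 105358 peaks over 123 Mb. Peaks were short and numerous at 6 h, with a median width of 563 bp against 662 bp, and 45% of 6 h peaks against 38.2% of 2-cell peaks were under 500 bp. Wide peaks went the other way. There were 1860 peaks over 5 kb at 6 h, holding 10.9% of the covered length, and 3159 at the 2-cell stage, holding 19.2% of it. The longest single peak was found at 6 h (87077 bp, against 38778 bp). The covered length at the 2-cell stage was 0.887 times that at 6 h, and lower on 19 of 19 autosomes (per-chromosome ratio 0.908 ± 0.0571, SD over 19 autosomes; lowest 0.767 on chromosome 7, highest 0.984 on chromosome 18). That order rested on weak peaks. The median fold enrichment over input was 2.73 at 6 h and 3.10 at the 2-cell stage, and when only peaks of at least 3-fold were kept in both lists the ratio was 1.68. With only peaks of a -log10 q of at least 2 it was 1.06.

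The stages shared 66.2 Mb, which was 47.8% of the 6 h length and 53.9% of the 2-cell length, a Jaccard index (shared over joint length) of 0.340. The index lay between 0.290 on chromosome 19 and 0.401 on chromosome 4. Of the 6 h windows, 50.7% [50.5 to 51.0] were unmarked at the 2-cell stage, and of the 2-cell windows 47.4% [47.1 to 47.7] were unmarked at 6 h. Short peaks met a peak of the other list least often: 71.9% of 6 h peaks under 500 bp met no 2-cell peak, whereas 1.77% of the 1860 peaks over 5 kb met none. For 2-cell peaks the shares were 55% and 0.317%. A wider peak has more bases at which it can meet another, so these shares depend on width itself. They were not set against an expectation for each width. Windows marked at the 2-cell stage only were often partly covered at 6 h: 48.8% of them held no 6 h peak base. Of the 6 h only windows 67.9% held no 2-cell peak base. The 2-cell only windows also lay closer to 6 h windows than the reverse. A 6 h window was the direct neighbour of 38.8% of 2-cell only windows and the median distance was 2 kb, while 22.6% of 6 h only windows had a 2-cell neighbour and their median distance was 6 kb. Among 2-cell peaks 6.69% spanned at least 2 peaks of the 6 h list.

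Enrichment at 6 h went with presence at the 2-cell stage. In the lowest quartile of 6 h windows by fold 26.3% [25.8 to 26.8] were marked at the 2-cell stage, then 41.5%, 57.3% and, in the highest quartile, 71.9% [71.4 to 72.4]. Seen from the 2-cell list the slope was shallower, from 46.7% in the lowest quartile to 61.0% in the highest. Within the 58433 shared windows the folds of both stages were weakly related (Spearman's rho 0.241, across windows that share their libraries and neighbours and are not independent).

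GC content separated the stages only at its upper end. The median GC content of marked windows differed little between 6 h only (45.7%), shared (47.8%) and 2-cell only windows (45%), against 41.7% for all windows. Up to 50% GC the numbers of marked windows were nearly equal, with 2-cell over 6 h ratios of 0.986, 0.993 and 1.01 in the bins under 40%, 40 to 45% and 45 to 50%. The ratio was 0.882 between 50 and 55% and 0.462 at 55% and over. In this last bin 21.5% of windows were marked at 6 h, and 59.4% of those had no mark at the 2-cell stage. The fall was steeper for windows in CpG islands: 31.0% of them were marked at 6 h and 3.11% at the 2-cell stage, and 91.0% of the marked ones were unmarked later. Windows of the same GC bin outside islands went from 19.4% to 11.4%, with 48.6% unmarked. They were the more numerous, with 37428 against 7970 windows, and held 7276 of the 9750 windows marked at 6 h.

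**Figure D1:**
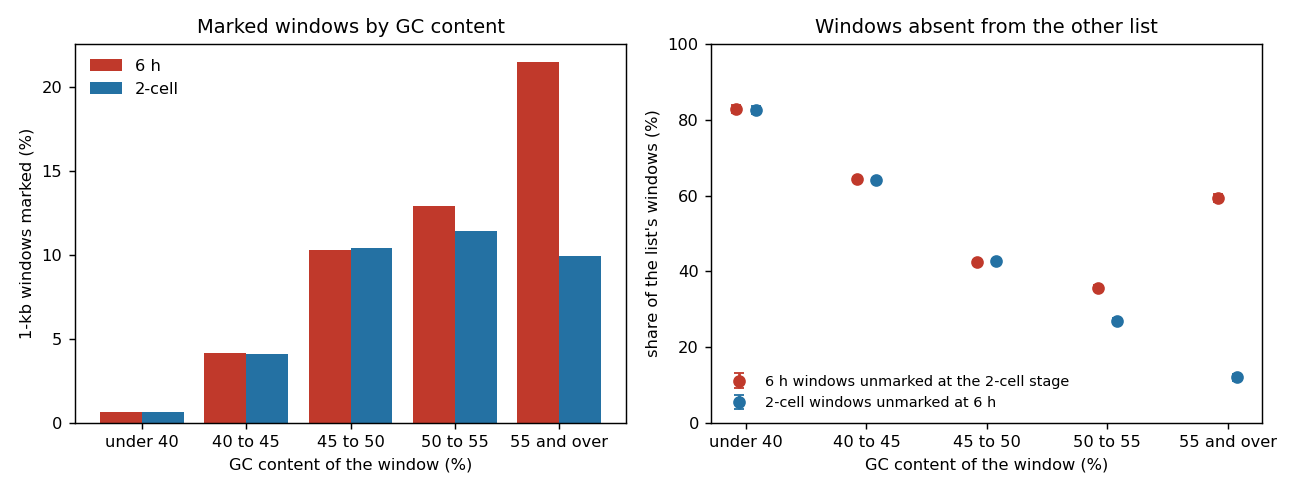
Left, the share of autosomal 1-kb windows (%) marked in the 6 h list (red) and the 2-cell list (blue), by GC content of the window (%). Right, the share of each list's windows that the other list lacks, with 95% Wilson intervals mostly smaller than the points; both shares run together up to 50% GC and part at 55% and over, where 59.4% of 6 h windows were unmarked at the 2-cell stage.

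A CpG island is a stretch rich in CpG dinucleotides that usually lies at a gene start and is kept free of DNA methylation. Of 15780 autosomal islands, 43.1% [42.3 to 43.9] were marked at 6 h and 7.15% [6.76 to 7.56] at the 2-cell stage. Only 13.2% of the islands marked at 6 h were marked later. Islands at promoters went from 40.7% to 4.00%, those in gene bodies from 47.7% to 12.3% and intergenic ones from 49.5% to 19.3%, so the fall was steepest at gene starts. The 6 h level stood apart from the other lists: cumulus cells had 5.52% of islands marked, 14 h embryos 9.01%, PN5 zygotes 9.78% and 4-cell embryos 4.61%.

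The same was seen at promoters, which reached 1 kb to either side of the annotated start of 20807 coding genes. Each was taken as marked if 1 peak filled at least 50% of its bases or had at least 50% of its own bases there. At 6 h 6220 promoters (29.9%) were marked and at the 2-cell stage 1330 (6.39%). The promoters marked at 6 h only numbered 5363, or 25.8% of all, those marked at the 2-cell stage only 473, or 2.27%, and 857 were marked in both. Of the 6 h only promoters, 5241 held no 2-cell peak base. The excess was large under other rules too, though its size varied: 1267 against 177 when at least 50% of the promoter had to be covered, 4327 against 555 with both lists brought to equal length, and 1369 against 493 with peaks of at least 3-fold.

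Promoters were split by CpG content into high, intermediate and low classes. Of 10395 high-CpG promoters 41.1% were marked at 6 h and 4.63% at the 2-cell stage, and 7.0% [6.28 to 7.81] of those marked at 6 h were still marked. Intermediate promoters went from 22.6% to 6.42% with 19.3% [16.8 to 22] still marked, and low-CpG promoters from 16.5% to 9.16% with 36.1% [33.3 to 39.0]. A mark already present in the donor cells went with presence at the 2-cell stage in every class: 31.8% of high-CpG promoters marked in cumulus cells and at 6 h were marked at the 2-cell stage, against 5.26% of those unmarked in cumulus cells. For low-CpG promoters the shares were 49.4% and 24.7%. The high-CpG mark was narrow, with the largest share of genes covered, 27.4%, 250 bp inside the gene at 6 h. The 2-cell share within 1 kb of those starts was at most 2.53%.

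**Figure D2:**
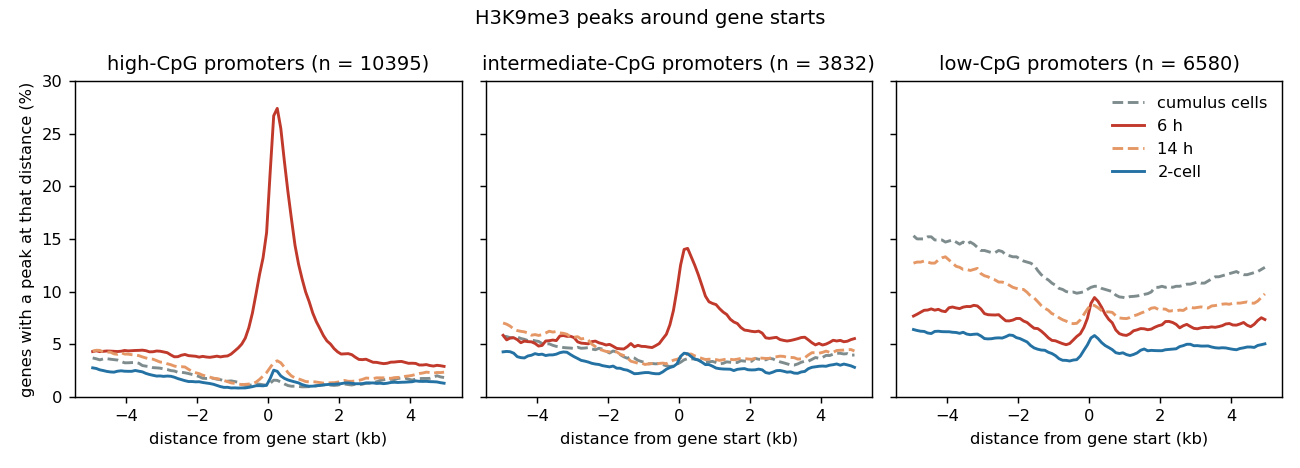
Share of genes (%) with an H3K9me3 peak at each distance from the gene start (kb, in the direction of transcription), for high-, intermediate- and low-CpG promoters, in cumulus cells, 6 h, 14 h and 2-cell embryos. The 6 h line rises to 27.4% just inside high-CpG genes, and the 2-cell line stays at or under 2.75% over the whole 10-kb span; in the low-CpG class the cumulus line is the highest and the 2-cell line the lowest.

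Sequences just upstream of the gene start illustrate the CpG content of some of the most fully covered promoters, not of each group as a whole. They are the 200 bases before the start in mouse build GRCm38, 5' to 3' along the gene, and capitals mark CpG dinucleotides. These 4 promoters were covered to 100% at 6 h, held no 2-cell peak base, and contain 24, 14, 17 and 15 CpGs in the window. Cdh22 encodes a cadherin, Nefh the heavy neurofilament subunit, and Mnx1 and Gbx2 homeodomain factors of motor neurons and of the hindbrain.
Cdh22 (chr2:165234854-165235053, - strand): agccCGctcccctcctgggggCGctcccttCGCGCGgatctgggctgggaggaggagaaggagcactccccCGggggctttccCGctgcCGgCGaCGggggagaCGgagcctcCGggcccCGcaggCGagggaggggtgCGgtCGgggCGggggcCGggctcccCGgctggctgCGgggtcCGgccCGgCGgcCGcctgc
Nefh (chr11:4948065-4948264, - strand): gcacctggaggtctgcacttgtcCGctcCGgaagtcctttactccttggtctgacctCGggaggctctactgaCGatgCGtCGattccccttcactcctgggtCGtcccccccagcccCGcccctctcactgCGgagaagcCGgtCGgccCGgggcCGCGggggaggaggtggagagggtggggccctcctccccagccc
Mnx1 (chr5:29478471-29478670, - strand): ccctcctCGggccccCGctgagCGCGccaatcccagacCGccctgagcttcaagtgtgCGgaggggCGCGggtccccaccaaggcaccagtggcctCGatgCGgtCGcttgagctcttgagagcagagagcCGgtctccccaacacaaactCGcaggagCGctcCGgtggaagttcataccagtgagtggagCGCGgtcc
Gbx2 (chr1:89931180-89931379, - strand): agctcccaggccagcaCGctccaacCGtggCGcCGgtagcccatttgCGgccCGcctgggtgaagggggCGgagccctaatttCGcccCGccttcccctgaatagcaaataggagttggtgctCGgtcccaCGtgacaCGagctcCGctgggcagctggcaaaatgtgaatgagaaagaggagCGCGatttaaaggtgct

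These 3 promoters had no 6 h peak base and were covered to at least 98.8% at the 2-cell stage. They contain 8, 0 and 1 CpGs in the window. Krt35 encodes a hair keratin, Lpin1 a phosphatidate phosphatase of lipid synthesis and Gbgt1 a glycosyltransferase.
Krt35 (chr11:100096242-100096441, - strand): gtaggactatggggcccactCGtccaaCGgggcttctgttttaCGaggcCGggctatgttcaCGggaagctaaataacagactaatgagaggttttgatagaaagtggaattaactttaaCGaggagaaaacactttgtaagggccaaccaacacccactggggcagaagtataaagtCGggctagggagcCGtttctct
Lpin1 (chr12:16610967-16611166, - strand): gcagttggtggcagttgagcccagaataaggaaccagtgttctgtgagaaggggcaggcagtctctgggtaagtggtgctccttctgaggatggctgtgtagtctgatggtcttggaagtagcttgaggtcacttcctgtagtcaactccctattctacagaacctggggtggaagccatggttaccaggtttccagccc
Gbgt1 (chr2:28496691-28496890, + strand): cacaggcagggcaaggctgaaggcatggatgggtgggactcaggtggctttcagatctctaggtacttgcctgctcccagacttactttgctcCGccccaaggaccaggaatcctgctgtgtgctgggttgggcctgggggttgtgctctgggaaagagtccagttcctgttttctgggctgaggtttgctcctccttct

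Many promoters were covered to 100% at 6 h and held no 2-cell peak base. The 10 of them with the highest peak fold were those of Cdh22, Trank1, Nefh, Tshz3, Mnx1, Dlgap4, Celsr3, Foxe1, Gfra2 and Gbx2, with peak folds from 3.99 down to 3.38. All were high-CpG. Cumulus cells had no peak base over 7 of them and covered 33.5% of Trank1, 12.7% of Celsr3 and 16.8% of Gbx2. At 14 h 7 again held none, while Dlgap4 was covered to 61.0%, Celsr3 to 47.7% and Mnx1 to 8.15%. The genes themselves did not always follow: Nefh went from 32.8% of its length to 0% and Foxe1 from 56.8% to 0%. Tshz3, a zinc finger homeobox gene, still had 60.7% of its length covered at the 2-cell stage (68.4% at 6 h). Cdh22 had 15.6% covered (19.7% at 6 h).

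The 8 promoters with the fullest 2-cell coverage and no 6 h peak base were those of Krt35, Lpin1, Dnajb13, C8b, Gbgt1, Rpl9-ps1, Gsdma2 and Mroh4. None of these 8 was high-CpG, while 182 of all 473 2-cell only promoters (38.5%) were, against 74.0% of the 6 h only promoters. Most held a 14 h peak base. At 14 h coverage was 100% at Dnajb13, 67.8% at Gbgt1, 55.3% at C8b and 45.3% at Rpl9-ps1, and 0% at Mroh4 alone. Krt35, Lpin1 and Gbgt1 were covered to at least 97% at both the 4-cell and 8-cell stages, and Dnajb13 to 0% and 16.2%. Over all 473 promoters of this kind, 29.6% were marked at 14 h, 17.5% in cumulus cells, 35.5% at the 4-cell stage and 24.7% in PN5 zygotes. Of the 857 promoters marked at both stages 64.1%, 48.0%, 56.7% and 38.0% were, and of the 5363 marked at 6 h only 12%, 9.81%, 4.77% and 10.7%. Over all promoters the shares were 8.58%, 7.83%, 6.1% and 9.25%, nearer to the 6 h only promoters than to the shared or 2-cell only ones. That background mixes the CpG classes, while 74.0% of the 6 h only promoters were high-CpG. CpG islands at promoters were marked less often, at 6.15%, 2.80%, 1.51% and 6.88%, each below the share of the 6 h only promoters. Islands and promoters are different units, and a background of high-CpG promoters alone was not computed for these lists.

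Developmental regulators lay among the 6 h only promoters far above the background of 25.8%. In a list of 143 developmental transcription factors outside the Hox clusters (Fox, Sox, Pax, Lhx, Tbx, Nkx and related families), 116 promoters were marked at 6 h and 29 at the 2-cell stage. The numbers were 87 at 6 h only, 29 in both and 0 at the 2-cell stage only. Of 135 gene bodies of at least 2 kb, 66 were covered at least 20 points less at the 2-cell stage and 1 at least 20 points more, against 4.75% and 0.907% of all genes. Foxb2, under 2 kb and not among these bodies, went from 99.6% of its length to 0%, Otx1, a head patterning factor, from 75.2% to 0%, Foxd2 from 95.6% to 10.5% and Nkx1-1 from 100% to 26.9%. These genes are mostly high-CpG, so the fitting comparison is with other high-CpG promoters. In that class 97 of 110 listed promoters (88.2%) were marked at 6 h, against 41.1% of all. Of the marked ones 25.8% were still marked at the 2-cell stage, against 7.0%.

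Signalling genes were marked often at 6 h and seldom at the 2-cell stage. Of 73 Wnt, Bmp, Fgf, Gdf and hedgehog ligands and their inhibitors, 47 promoters were marked at 6 h and none of those 47 was marked later, while Gdf9, an oocyte growth factor, and Wnt8b were marked at the 2-cell stage only. Among their high-CpG promoters 35 of 40 were marked at 6 h (87.5%, against 41.1% of all) and 0 of 35 later, where 7.0% of all marked high-CpG promoters were still marked. The promoters of Gdf6, Gdf7 and Wnt5a went from 100% covered to 0%, and that of Fgf3 from 99.2% to 0%. Mean coverage of 70 signalling gene bodies was 13.1% at 6 h and 1.20% at the 2-cell stage.

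The Hox clusters, which specify position along the body axis, had fewer marked promoters at the 2-cell stage than at 6 h, and fewer still at 14 h. Of 39 Hox promoters 32 were marked at 6 h (82.1%, against 29.9% of all), 10 at 14 h and 20 at the 2-cell stage (51.3%, against 6.39%). In both lists 17 were marked, at 6 h only 15 (38.5%, against 25.8%) and at the 2-cell stage only 3 (Hoxa9, Hoxb2 and Hoxb3, 7.69%, against 2.27%). Within the high-CpG class 13 of 27 Hox promoters marked at 6 h were marked at the 2-cell stage too (48.1%, against 7.0% of all marked high-CpG promoters). In 38 gene bodies mean coverage went from 40.2% to 17.8%, with 18 lower by at least 20 points (47.4%, against 4.75% of all) and none higher. The clusters differed. HoxA (chr6:52155590-52260880) went from 44.6% covered to 21.4%, HoxC (chr15:102921103-103036852) from 21.3% to 6.23% and HoxD (chr2:74668310-74765142) from 26.0% to 15.1%, whereas HoxB (chr11:96194316-96368256) was at 24.2% and 22.9%. Cumulus cells had 6.94%, 0.439%, 5.05% and 5.94% of HoxA, HoxC, HoxD and HoxB covered. At 14 h the values were 12.6%, 4.21%, 3.67% and 11%, lower than both at 6 h and at the 2-cell stage in all 4 clusters. At the 4-cell stage they were 54.1%, 18.5%, 21.0% and 43.6%, above the 2-cell value in all 4. Within the clusters Hoxb9 and Hoxd13 had promoters covered to 100% at 6 h and 0% at the 2-cell stage, and Hoxc11 lost its body coverage, from 95% to 0%.

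**Figure D3:**
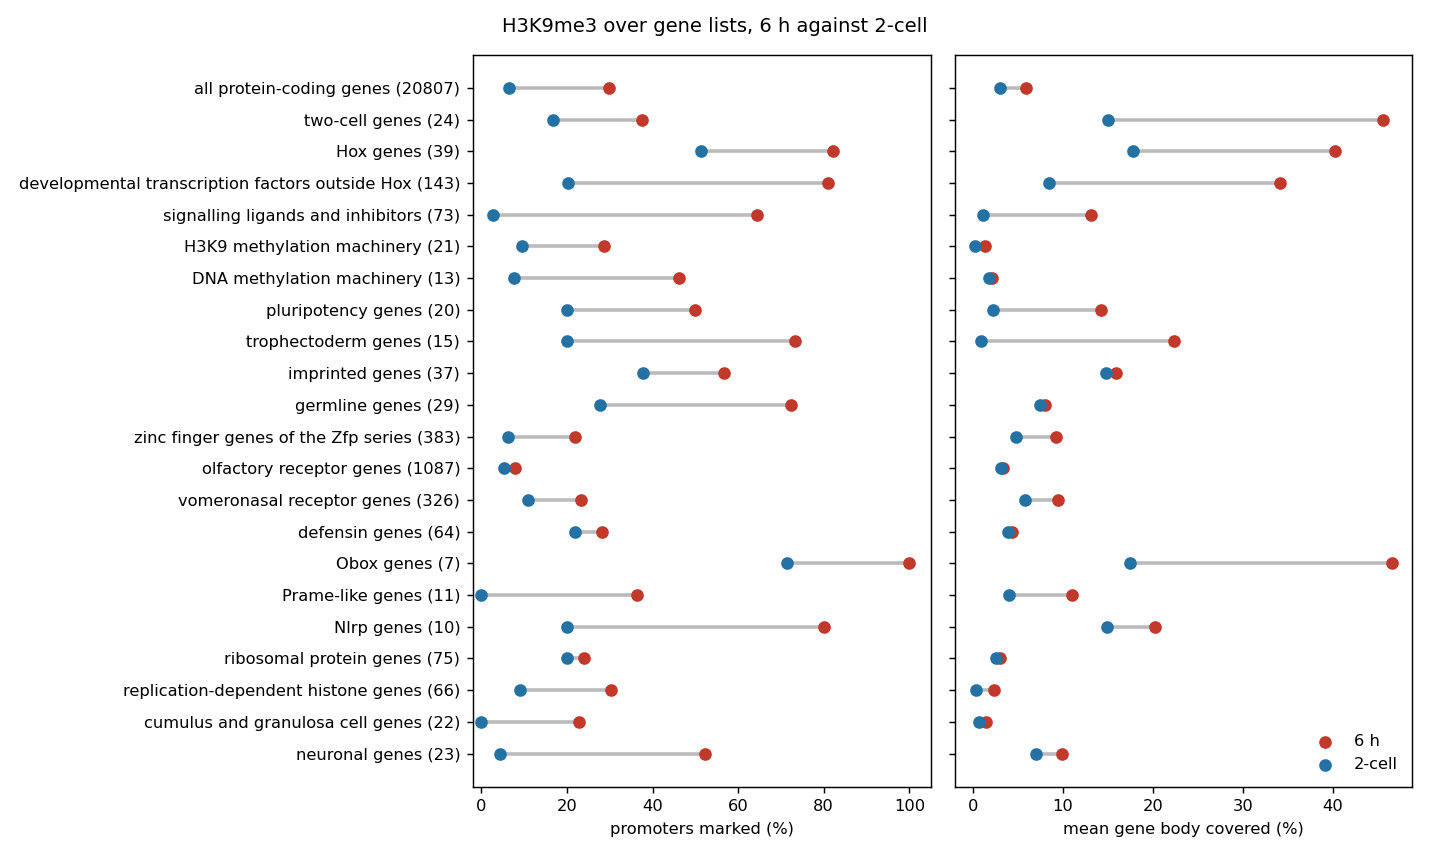
Left, the share of promoters marked (%), and right, the mean share of the gene body covered by peaks (%, genes of at least 2 kb), at 6 h (red) and the 2-cell stage (blue) for each gene list, with the number of genes in parentheses. The 6 h point lies to the right of the 2-cell point in every list shown. The gaps are widest for promoters at signalling genes, developmental transcription factors and Nlrp genes, and for bodies at 2-cell genes and Obox genes. Olfactory receptor, ribosomal protein and imprinted genes show narrow gaps in bodies.

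Genes of the early lineages were also marked more often at 6 h than later. Their lists share members with the developmental list, among them Gata2, Gata3, Sox2 and Tbx3. Of 15 trophectoderm genes 11 promoters were marked at 6 h (73.3%, against 29.9% of all) and 3 later (20.0%, against 6.39%). These 3 were Krt8, Krt18 and Tfap2c, marked in both lists. Gata3 and Hand1, regulators of trophoblast, went from 100% promoter coverage to 0%, and Gata2 from 68.5% to 0%. Of 20 pluripotency genes 10 were marked at 6 h and 4 later. Prdm14 went from 100% to 0%, Klf4 from 68.3% to 0% and Sox2 from 97.3% to 21.1%, while Nanog and Klf5 were marked at the 2-cell stage only. Of 18 bodies 6 were lower by at least 20 points (33.3%, against 4.75% of all) and none higher (against 0.907%). Genes of the H3K9 methylation machinery were near the share of all promoters, with 6 of 21 (28.6%) marked at 6 h and 2 later. The largest promoter differences there were at Fam208a (TASOR, of the HUSH silencing complex), with 42.9% and then 0%, at the H3K9 demethylase gene Kdm3b, with 41.2% and then 0%, and at Ehmt2 (G9a), with 32.3% and then 0%. Of 13 DNA methylation genes 6 promoters were marked at 6 h (46.2%, against 29.9% of all), Dnmt3a, Dnmt3b and Tet1 among them. Only Dppa3 was marked later (7.69%, against 6.39%). The promoter differences in this list were small, the largest being at Dnmt3b, with 9.45% covered at 6 h and then 0%, and at Tet1, with 8.90% and then 0%.

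Genes that are transcribed in a burst at the 2-cell stage were followed one by one. Of 24 such genes 17 had bodies of at least 2 kb. Of these bodies 10 were lower at the 2-cell stage by at least 20 points (58.8%, against 4.75% of all) and none higher (against 0.907%). Mean coverage was 66.8% in cumulus cells, 45.6% at 6 h, 47.8% at 14 h and 15.0% at the 2-cell stage. Zscan4f, of the telomere-maintaining Zscan4 family, was covered to 100% in cumulus cells, 53.7% at 6 h, 32.7% at 14 h and 0% at the 2-cell stage. Zscan4c went from 33.4% at 6 h to 0%, Zscan4d from 28.6% to 0% and Zscan4e from 33.1% to 1.65%. The Usp17l deubiquitinase genes went from 72.5% to 6.77% (Usp17la), 93.0% to 6.82% (Usp17lb), 30.7% to 0% (Usp17lc), 71% to 20.5% (Usp17ld) and 59.8% to 26.4% (Usp17le).

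Some 2-cell genes kept the mark. Duxf3, of the Dux family of 2-cell activators, was covered to 100% in cumulus cells and in the 6 h, 14 h and 2-cell lists. Sp110 went from 92.3% to 75.5%. Within the Tdpoz genes, which encode BTB-domain proteins, all under 2 kb, the stages diverged: Tdpoz3 was at 58.9% and then 95.9%, Tdpoz4 at 68.8% and then 0%, and Tdpoz5 at 68.3% and then 0%. Of the promoters of all 24 genes, 9 were marked at 6 h and 4 at the 2-cell stage, with 6 at 6 h only (25%, close to the 25.8% of all genes). The rule for a marked promoter can miss coverage by a peak that lies mostly outside it. Usp17lb counted as marked at the 2-cell stage only, though its promoter was covered to 41.9% at 6 h and 8.00% at the 2-cell stage. Promoter coverage went from 100% to 0% at Gm16513 and from 31.9% to 0% at Usp17la. Members of the Zscan4, Usp17l, Tdpoz and Dux families are near-identical copies, so reads may have been placed in the wrong copy and single members are uncertain.

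**Figure D4:**
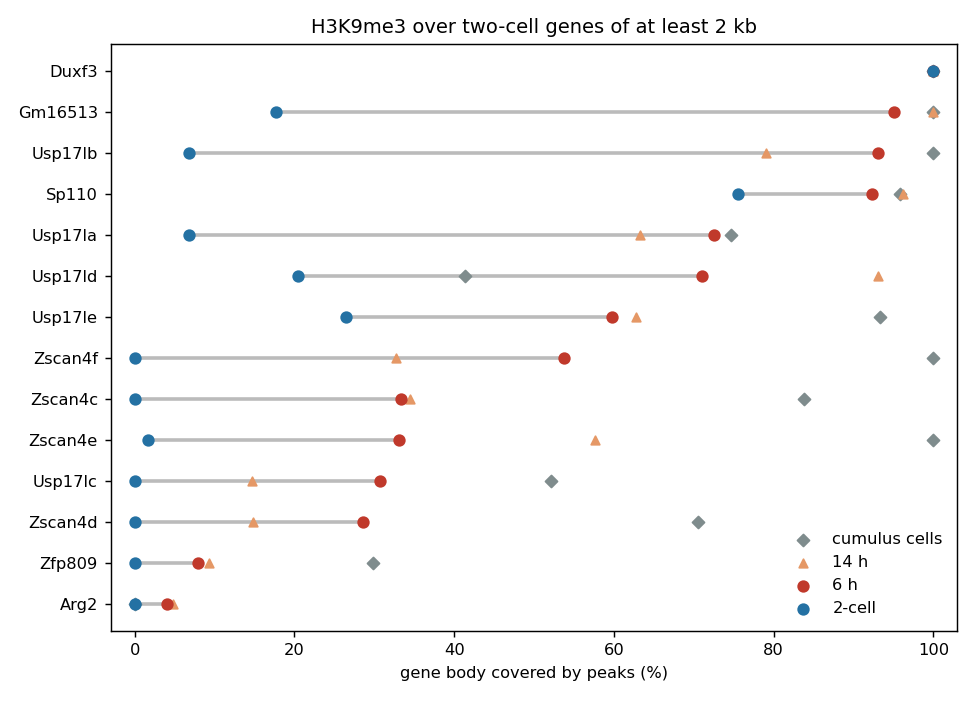
Share of the gene body (%) covered by H3K9me3 peaks in 2-cell genes of at least 2 kb that had a peak base at either stage, in cumulus cells (grey diamonds), 6 h (red), 14 h (orange triangles) and 2-cell embryos (blue). Lines join the 6 h and 2-cell points; Zscan4c, Zscan4d, Zscan4f and Usp17lc end at 0%, while Duxf3 stays at 100%.

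Other clustered germline and oocyte families also fell in part. All 7 Obox promoters, of an oocyte homeobox family, were marked at 6 h and 5 at the 2-cell stage. Mean body coverage of Obox genes went from 46.5% to 17.5%, and Obox6 from 93.9% to 0%. Of 10 Nlrp genes 8 promoters were marked at 6 h (80.0%) and 2 later (20.0%), and of 11 Prame-like genes 4 (36.4%) and then 0. All promoters stood at 29.9% and 6.39%. Of 29 germline genes, which are silenced by promoter methylation in somatic cells, 21 promoters were marked at 6 h and 8 of these at the 2-cell stage (Dazl, Ddx4, Mael, Mei1, Rpl10l, Syce1, Sycp1 and Sycp2). Within the high-CpG class 7 of 14 germline promoters marked at 6 h were still marked (50%, against 7.0% of all high-CpG promoters marked at 6 h). Of these 14, 9 were also marked in cumulus cells. Of all high-CpG promoters marked in cumulus cells and at 6 h, 31.8% were still marked. Germline bodies of at least 2 kb had a mean coverage of 8.04% and 7.44%.

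Imprinted genes had similar body coverage at both stages but fewer marked promoters at the 2-cell stage. Of 37 promoters 21 were marked at 6 h (56.8%) and 14 at the 2-cell stage (37.8%), 9 at 6 h only (24.3%, against 25.8% of all) and 12 in both, among them Cdkn1c (an inhibitor of cyclin-dependent kinases, covered to 100% at both stages), Igf2r, Peg3, Peg10, Nnat and Mkrn3. Within the high-CpG class 8 of 15 marked promoters were still marked (53.3%). Mean body coverage was 15.9% and 14.8%. Phlda2, an imprinted placental growth gene next to Cdkn1c, went from 99.7% promoter coverage to 0%, and Dlk1 from 80.7% to 0%. Igf2 and Gnas were the promoters marked at the 2-cell stage only, Igf2 with 14.4% at 6 h and 100% at the 2-cell stage, Gnas with 34.4% and 84.5%. The body of Igf2 went the other way, from 46.3% covered at 6 h to 12.9% at the 2-cell stage. That of Gnas went from 16.5% to 21.2%.

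Zinc finger genes of the Zfp series carry H3K9me3 over their 3' exons in many cell types. Of 382 such bodies 28 were lower at the 2-cell stage (7.33%, against 4.75% of all) and 1 higher (0.262%, against 0.907%). In the first decile of the gene mean coverage went from 7.98% to 2.16%, and in the last decile from 11.3% to 8.58%, so the fall was smaller at the 3' end. Over all genes it went from 9.18% to 2.80% in the first decile and from 4.78% to 2.86% in the last. Zfp992 and Zfp981, of the chromosome 4 cluster, went from 89.5% to 41.0% and from 93.8% to 61.5%. Olfactory receptor bodies were even, with 16 of 991 lower (1.61%) and 19 higher (1.92%) and mean coverage of 3.37% and 3.13%. Of 265 vomeronasal receptor bodies 10 were lower (3.77%, against 4.75% of all) and none higher, with mean coverage of 9.44% and 5.85%.

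Ribosomal protein genes went their own way at promoters. Of 75 promoters 18 were marked at 6 h and 15 at the 2-cell stage. A set of 10, or 13.3%, were marked at the 2-cell stage only, against 2.27% of all promoters. The peaks were narrow at Rps23, covering 21.7% of the promoter, and at Rpl28, covering 21.4%, with 0% at 6 h, in cumulus cells and at 14 h in both. Mean coverage of 66 ribosomal bodies was 3.05% and 2.58%. Ribosomal protein genes have many processed copies in the genome, so reads at their exons are uncertain. Of 66 replication-dependent histone genes 20 promoters were marked at 6 h (30.3%) and 6 at the 2-cell stage (9.09%), close to the 29.9% and 6.39% of all promoters. Of 22 cumulus and granulosa cell genes 5 were marked at 6 h (22.7%) and 0 later, and of 23 neuronal genes 12 (52.2%) and 1.

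Over all 19408 gene bodies of at least 2 kb, 921 were covered at least 20 points less at the 2-cell stage (4.75%) and 176 at least 20 points more (0.907%). With peaks of at least 3-fold only, the counts were 298 and 239. Mean coverage was 5.90% and 3.08%, and 421 and 205 genes were at least 50% covered, 108 of them at both stages. The largest falls were in C1ql2, Cdk5r2 and Gsx1, from 100% to 0%, then Scrt1 (99.4%), Hoxc11 (95%), Obox6 (93.9%), Epop (92.9%) and Grrp1 (92.2%), each to 0%. C1ql2 encodes a synaptic C1q-like protein, Cdk5r2 an activator of the neuronal kinase Cdk5, and Gsx1 and Scrt1 neural transcription factors. Cumulus cells had no peak base over C1ql2, Cdk5r2, Gsx1, Hoxc11, Epop and Grrp1 and covered 100% of Obox6.

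The largest rises were in Cd300c2 (2.42% to 96.5%), Bglap3 (6.86% to 100%), Krt35 (30.8% to 96.7%), Krt31 (18% to 82.8%), Actb, Mucl2 (12.1% to 76.0%), Fam71a (0% to 61.7%) and Olfr1415 (9.51% to 70.4%). Bglap3 is an osteocalcin-related gene, and Krt31, like Krt35, is a hair keratin. Bglap3 and Mucl2 were covered to 100% at 14 h. Actb, which encodes cytoplasmic beta-actin, was the exception among them as a ubiquitously expressed gene. Its body coverage was 64.8% in the 2-cell list and 0% at 6 h, at 14 h, in cumulus cells, 4-cell, 8-cell, morula, ICM and PN5, with trophectoderm at 70.2%. The 2-cell peak (chr5:142903122-142905479, GRCm38) had a fold of 7.33, covered 79.8% of the exonic and 22.9% of the intronic bases of Actb, and left the promoter at 0%. Actb too has processed copies elsewhere in the genome. The part of misplaced reads in its peak was not tested.

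Coverage was also compared in bins of 1 Mb. Of 2403 bins, 1410 had lower and 993 higher coverage at the 2-cell stage, and 118 were lower and 22 higher by at least 5 points. The largest fall was over 2 neighbouring bins at chr5:94000001-96000000, from 62.1% to 21.0% and from 48.5% to 17.3%. Cumulus cells had 97.1% and 79.6% of them covered and 14 h embryos 80.9% and 64.2%. These bins hold many predicted genes, and Gm16513 and D5Ertd577e. The next were the Zfp cluster at chr4:146000001-147000000 (63.3% to 34%), chr8:20000001-21000000 (50.1% to 24.1%) and chr2:171000001-172000000, with no protein-coding gene (50.6% to 25.3%). The largest rise was at chr5:119000001-120000000, which holds the limb and heart factors Tbx3 and Tbx5 (25.2% to 34.3%, with 17.3% in cumulus cells). The promoters of these genes did not share the rise: both were marked at 6 h only.

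The longest stretch with 6 h coverage and no 2-cell peak base was 15251 bp at chr5:95176936-95192186, within the second of these bins and over Gm16513. It was covered to 100% in cumulus cells and 95.8% at 14 h, and to 0% at the 4-cell stage. Then came 13358 bp at chr5:113674103-113687460 and 11082 bp at chr8:20700538-20711619, both intergenic. Both had been covered in cumulus cells, to 74.6% and 93.5%, and at 14 h, to 89.3% and 93.6%. They parted at the 4-cell stage, with 0% and 65.9%. The longest 2-cell stretches with no 6 h peak base were shorter. One of 8111 bp lay in an intron of Ulk4 (chr9:121221700-121229810), was 97.7% soft-masked repeat, and was covered to 0% in cumulus cells, 57.1% at 14 h, 90.4% at the 4-cell stage and 86.6% in PN5 zygotes. One of 7184 bp lay in an intron of Cfap58 (chr19:47963225-47970408), with 16.6% in cumulus cells and 85.6% at the 4-cell stage. The third, of 6793 bp on chromosome 18, was intergenic and stood at 0% in cumulus cells, 67.2% at 14 h and 77.9% at the 4-cell stage.

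Presence at the 2-cell stage went with the mark in the donor cells and, more closely, at 14 h. Of the 6 h windows marked both in cumulus cells and at 14 h, 70.3% [69.9 to 70.7] were marked at the 2-cell stage. The share was 58.3% [57.5 to 59.0] for those marked at 14 h but not in cumulus cells, 20.3% [19.6 to 21.0] for those marked in cumulus cells but not at 14 h and 13.1% [12.7 to 13.5] for those marked in neither. Cumulus cells marked 45.6% of 6 h only, 75.9% of shared and 33.0% of 2-cell only windows, against 8.25% of all windows. At the 4-cell stage 21.6%, 77.8% and 57.5% were marked, against 5.95% of all windows. In PN5 zygotes the shares were 11.5%, 46.2% and 33.0%, against 4.82% of all windows. The 6 h only windows that neither cumulus cells nor 14 h embryos shared made up 42.2%, and such 2-cell only windows 34.3%. Both shares were far below the 88.2% of all windows and above the 6.53% of windows marked in both lists.

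**Figure D5:**
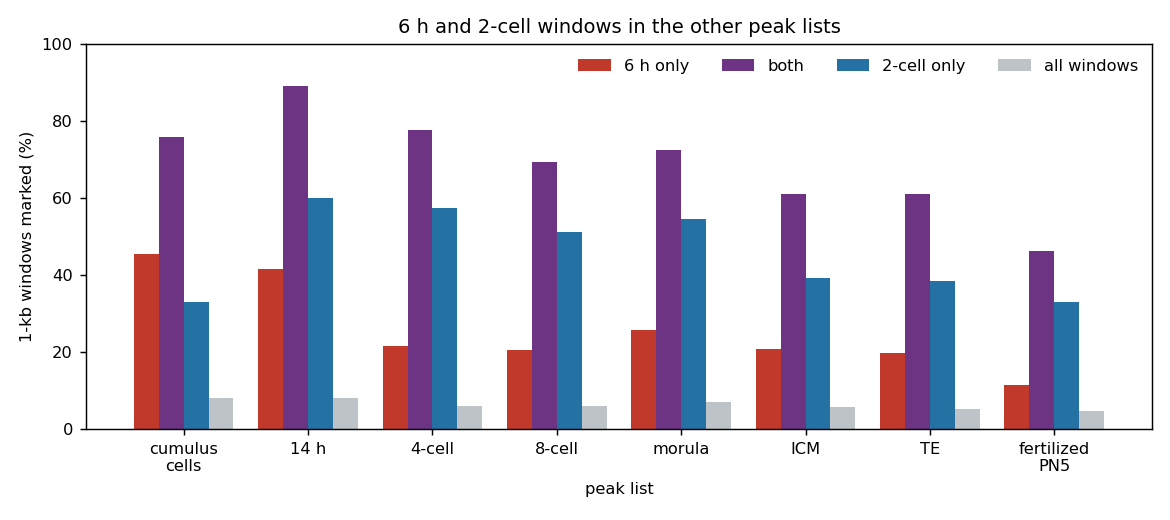
Share of 1-kb windows (%) marked in each of the other peak lists, for windows marked at 6 h only (red), in both (purple) and at the 2-cell stage only (blue), and for all autosomal windows (grey). Windows in both lists are the highest in every list; 6 h only windows lie above 2-cell only windows in cumulus cells (45.6% against 33.0%) and below them in each of the other lists.

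The classes also differed in repeats and in some short motifs. The median soft-masked (repeat) share was 32.3% in 6 h only, 54.0% in shared and 36.1% in 2-cell only windows, against 24.9% in all. Promoter bases fell in 4.97%, 0.852% and 0.738% of windows, against 1.63%. Motifs were searched on both strands of the whole window, and none of the searched strings contains another. The hexamer TGCCGC, bound by ZFP57 when methylated, was found in 10.1% of 6 h only, 20.0% of shared and 12.4% of 2-cell only windows, against 5.89% of all. These shares mix windows of different GC content. Between 45 and 50% GC TGCCGC was found in 6.80% of 6 h only, 22.8% of shared and 15.4% of 2-cell only windows, against 9.54% of all, and at 55% and over in 44.9%, 16.4% and 26%, against 32%. So 6 h only windows lay below all windows in the former bin and shared windows below them in the latter. The string AAGATGGC, the core of YY1 sites, was found in 10%, 18% and 13.3%, against 8.62%, and between 45 and 50% GC in 11.2%, 18.9% and 15.8%, against 10.2%. The E-box CACGTG, which MYC and MAX bind, was found in 11%, 10.8% and 11%, against 9.62%. The telomeric repeat TTAGGGTT was found in 4.31%, 3.67% and 4.43%, against 3.90%. Pooled over GC content these 2 motifs hardly differed between the classes, but by GC bin the E-box did. Its shares were 7.77%, 10.4% and 10.2% at 40 to 45% GC, against 9.37%. Between 45 and 50% they were 11.1%, 10.1% and 11.5%, against 13.2%, and between 50 and 55% 15.9%, 11.4% and 14.9%, against 15.8%. A match is no evidence of binding.

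A further list held 11 genes from loci that the study examined. Of these 4 promoters were marked at 6 h (36.4%, against 29.9% of all) and 1 at the 2-cell stage (9.09%, against 6.39%). Gata3 went from 100% promoter coverage to 0% and Cdv3 from 49.9% to 19%. The promoter of Max, the dimer partner of MYC, was covered to 11.5% and then 0%, and that of Nckap1 to 23.9% and then 0%. The promoters of Mycn, Fgfr1, Gata6, Trim28 and Wwp2 held no peak base at either stage, and Mycn had 10.6% of its body covered at 6 h and 0% at the 2-cell stage.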

How the data were processed

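H3K9me3 was profiled by native chromatin immunoprecipitation of pooled SCNT embryos. Per the study's methods and the labels, the authors trimmed reads with Cutadapt (version 1.16), aligned them to mm10 with BWA, merged replicates, removed duplicates and sampled the stages to equal read numbers with Picard and called broad peaks against input with MACS2. Each deposited list gives per peak the fold enrichment over input, a linear ratio, and a q-value deposited as -log10 q. Both came from the authors and were used unchanged.

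Peaks of the 19 autosomes were merged and intersected with windows of 1000 bp (windows with under 50% assembled bases were left out), with GENCODE M21 protein-coding genes and with CpG islands found in GRCm38.p6 by a running score (17 for a CpG, -1 for another base, at least 200 bp, GC from 50%, observed over expected CpG from 0.6). High-CpG promoters held a 500-bp window whose CpG ratio reached 0.75 and whose GC content reached 55%, and low-CpG promoters none with a ratio of 0.48 or more. Gene bodies differed when coverage differed by at least 20 points. Coordinates are 1-based.

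The members and gene lists were chosen with earlier results of these data known. Patterns that caught unrelated genes (Eno, Enc, Eny, Gatad and Bmp2k) were narrowed after the values were seen. Named were the 10, 8 and 6 promoters with the fullest coverage at 6 h only, at the 2-cell stage only and in both (ties by peak fold), the 8 bodies with the largest fall and rise, the 2-cell genes and study loci with a peak, and up to 4 members of each other list with the largest promoter difference. Other members of the lists (such as Nanog, Klf5, Krt8, Krt18, Tfap2c, Gdf9, Wnt8b, Dnmt3a, Dppa3 and the listed Hox, germline and imprinted genes) were named by promoter class after their values were seen. The overlap calculation (covered and shared bases, marked windows and regions) was tested on simulated peaks. Python 3 with numpy, pandas and matplotlib was used.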

Additional observations from a re-analysis of the deposited data

Results flagged for a closer look

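The mitochondrial genome was not among the regions compared. The 2-cell list held 6 peaks on it and the 6 h list 0, and this was set apart because it is signal outside the autosomes above the 3 counts that a count of 0 allows. The 8-cell and ICM lists held 5 each, and the cumulus cell, morula and trophectoderm lists 2 each. The 14 h list held 1, and the 4-cell and PN5 lists 0.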

How the results depend on the processing

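The values rest on 1 pooled list per stage, so no replicate could be left out and no result has an error between replicates. No paired analysis was possible because the replicates of each stage were merged before peaks were called. With a -log10 q of at least 2 the covered length, 2-cell over 6 h, turned from 0.887 to 1.06, and with a fold of at least 3 to 1.68. With chromosome X it was 0.873. The Jaccard index was 0.349 at the stricter q and 0.348 at equal covered length. The share of 6 h windows unmarked at the 2-cell stage was 45.7% at the stricter q, 47.5% at equal length, 49.8% with windows covered to 90% and 43.4% with 3-fold peaks. The share of 2-cell windows unmarked at 6 h was 50.4%, 49.0%, 56.2% and 67.1% under the same settings and 35.8% with any peak base. Cumulus cells marked 51.1% of 6 h only windows at the stricter q. At equal length they marked 34.2% of 6 h only and 22.2% of 2-cell only windows, the cumulus list having been shortened too. Promoters marked at 6 h only numbered 3407 at the stricter q, 1267 when covered to 50% and 1369 with 3-fold peaks, and those at the 2-cell stage only 177 when covered to 50%. Genes with lower coverage at the 2-cell stage numbered 1926 at a difference of 10 points, 323 at 40 points and 298 with 3-fold peaks, and those with higher coverage 449 at 10 points and 49 at 40 points. The ratio of marked CpG islands, 2-cell over 6 h, was 0.193 at the stricter q and at equal length, and 0.327 with 3-fold peaks. The fold setting was chosen for windows, promoters, islands and genes after the data had been seen. Where no cause is given above, the cause was not tested. The direction held for promoters, genes and islands under every setting run. For covered length it did not, and the order of the window shares, larger for 6 h in the lists as deposited, turned at the stricter q, at equal length, with windows covered to 90% and with 3-fold peaks.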

Other observations

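Among peaks of at least 1 kb with no base of the other list, those of the highest fold were spread over several chromosomes. At 6 h they were an intergenic peak of 12.1-fold (chr10:72296252-72297357), which 14 h embryos lacked, a peak of 8.74-fold in Zfp661 and one of 5.68-fold in Rcor2, a corepressor gene, which no other list covered. At the 2-cell stage, after the peak of Actb, they were a peak of 6.38-fold on chromosome 16, covered to 100% at 14 h as well, and one of 6.19-fold in Spin1, a histone reader gene, covered to 100% in the morula and to 0% at the 4-cell and 8-cell stages.

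Exons were covered more than introns at both stages. Over 19063 genes with introns, mean exonic coverage was 7.74% at 6 h and 3.57% at the 2-cell stage, and mean intronic coverage was 4.97% and 2.78%.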
